A study of Mus musculus with 6 samples.

Results

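Histone genes of the Hist1h, Hist2h, Hist3h and Hist4h families were followed in whole brains of Mphosph8 mutant and control mice. Members were all protein-coding genes whose GENCODE M21 symbol begins with one of these 4 prefixes, matched by gene identifier to the count files. The rule took 67 of the 54532 genes counted, and it used no measured value. Of these, 54 lie on chromosome 13 between 21715763 and 23934851 (GRCm38), 10 on chromosome 3, 2 on chromosome 11 and 1 on chromosome 6. In 62 members every annotated transcript had 1 exon. Brains of C57BL/6J mice were taken at postnatal day 14, with 3 mice per genotype and 1 library per brain. Controls were Mphosph8fl/+ Nestin-Cre+ per the labels, with 1 floxed allele. The paper's text describes these controls as Nestin-Cre+ littermates and names no floxed allele. Mutants were Mphosph8fl/fl Nestin-Cre+, with both alleles floxed. Both groups therefore carried the same Cre transgene, which is active in neural progenitors and the cells that descend from them. In these cells the labels thus give 1 intact allele in the controls against none in the mutants. Microglia, blood and vessel cells in the tissue do not descend from these progenitors.

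Histones H2A, H2B, H3 and H4 form the protein core around which DNA is wound, and H1 binds the DNA between these cores. Most genes of the Hist clusters are expressed in S phase, when new DNA has to be packaged. Their mRNA usually ends in a short stem-loop and carries no poly(A) tail, and the stem-loop binding protein SLBP and the U7 particle guide the cut behind it. Some of the same genes can also give a longer, polyadenylated mRNA, which is known from cells that have left the cell cycle. MPP8, the product of Mphosph8, is a subunit of the HUSH complex, a repressor that binds chromatin marked by H3K9me3 and is known to act on intronless DNA. The comparison asked whether this largely intronless family moved when Mphosph8 was lost.

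The libraries were selected for polyadenylated RNA with single reads of 50 bases. They therefore favour the tailed fraction of histone mRNA and do not give its full amount. Some tail-less RNA was also counted, as given below. Depth ran from 12956880 to 15223424 counts per library. Mphosph8, the targeted gene, had levels of 55.8, 48.6 and 70.7 CPM (counts relative to the TMM-scaled library size, on the usual CPM scale) in the controls and 33.1, 27.2 and 26.5 in the mutants, a log2 fold change of -1.02 ± 0.12 (SE, n = 3 per group, edgeR quasi-likelihood test, adjusted p = 0.000157). The groups did not overlap. Control 3 was the only library with more than 1 count over 4 Y-linked genes, at 3641 counts. Xist had 27 counts in control 3 and from 11130 to 17697 in the other libraries. By these genes control 3 was male and the other libraries female, so sex was not balanced between the groups. The part of sex in the values was not tested. All 8 neuronal markers passed the filter on low counts, with summed levels of 4240 to 4470 CPM.

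The stem-loop was looked for in the annotated transcripts, because a polyadenylated mRNA that still holds the stem-loop has to run past it. The pattern searched after the stop codon was a stem of 6 base pairs around a loop of 4 bases that begins with T. The stem had to open with GG and close with a T-A pair. This pattern was found in 46 of the 67 members, and in 106 of the 21951 protein-coding genes (0.48%), H2afx among them. The spacing from the stop codon had a median of 31 bases (range 21 to 58). The commonest form, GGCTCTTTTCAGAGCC, was present in 26 members of types H1, H2A, H2B and H3, while 12 H4 genes carried forms with another stem. The examples below are the members on which the results turn, with 5 flanking bases on each side, the stem-loop in capitals, and positions in GRCm38.
Hist3h2a, chr11:58955167-58955192, plus strand: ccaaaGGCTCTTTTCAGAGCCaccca
Hist3h2ba, chr11:58949344-58949369, plus strand: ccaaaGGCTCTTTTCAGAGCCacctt
Hist1h1c, chr13:23739507-23739532, plus strand: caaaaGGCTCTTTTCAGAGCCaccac
Hist1h2ac, chr13:23683472-23683497, minus strand: ccaaaGGCTCTTTTCAGAGCCcccac
Hist1h4h, chr13:23531453-23531478, plus strand: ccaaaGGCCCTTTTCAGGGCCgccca
Hist1h4i, chr13:22040961-22040986, minus strand: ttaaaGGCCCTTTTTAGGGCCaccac
The first 4 share the commonest form, and both H4 genes have the stem with 3 C bases after GG. What lay behind the stem-loop differed between them. The annotated transcript went on for 1643 bases in Hist3h2a, 169 in Hist3h2ba, 840 in Hist1h1c, 2010 in Hist1h2ac and 330 in Hist1h4i, and for 46 in Hist1h4h.

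Reads were concentrated in a few members. All 67 together had 8444 counts over the 6 libraries, from 0.00805% to 0.0115% of a library. The 5 members with the most counts held 87.2% of them. These were Hist1h2bc with 2177 counts, Hist3h2a with 1548, Hist1h1c with 1444, Hist3h2ba with 1421 and Hist2h2be with 769. Thus 3 of the 5 encode H2B, 1 encodes H2A and 1 encodes the linker histone H1. The 2 members on chromosome 11 took 35.2% of the counts and the 54 members on chromosome 13 took 52.8%. By type, H2B genes held 55.9%, H2A genes 19.8% and H1 genes 18.9%, whereas the 12 H3 genes held 2.88% and the 13 H4 genes 2.57%. At the low end, 32 members had 1 to 9 counts and 18 had none in any library. In 14 of these 18, most 50-base words occur in other transcripts or the exons overlap another gene on the same strand, so their reads may not be assigned and a count of 0 sets no limit. For the other 4, Hist1h2aa, Hist1h2ba, Hist1h3c and Hist2h2ac, it allows a level of up to 0.036 CPM of assigned reads over the 6 libraries (3 counts, counting error only).

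Per kilobase of exon the order changed. Hist3h2ba was highest, with a mean over all libraries of 27.8 CPM per kb, followed by Hist1h2bc with 22.6, Hist1h1c with 11.1, Hist3h2a with 8.62 and Hist2h2be with 3.51. The next were Hist2h3c2 at 2.34, Hist1h4i at 1.56, Hist1h4h at 1.17, Hist1h1e at 0.885 and Hist1h2bg at 0.751. The listed histone variants are spread over the genome, and most give polyadenylated mRNA throughout the cell cycle, though H2afx held a stem-loop match. Their median was 19.4 CPM per kb over the 11 listed, from 1.02 for Cenpa to 70.3 for H1f0. Of the 11, 3 lay above Hist3h2ba on this scale.

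Most reads fell on members whose annotated transcripts run far past the stop codon. Of the 25 members with at least 200 annotated bases after the stop codon, 13 had at least 10 counts, and the 25 held 98.1% of all member counts. Of the 25 members with at least 50 but fewer than 200 such bases, 4 had at least 10 counts. Of the 17 with fewer than 50, which hold little more than the coding sequence, none did, and their highest total was 9 counts. Among the 25 long members 3 had no count, Hist1h2bq, Hist1h2br and Hist2h3c1, and in these most words are shared with other transcripts or all exonic bases overlap another gene, so reads may not be assigned to them. Exonic length also differs between these classes, and these totals were not scaled for it. Shared words bear on the totals as well. In 30 members fewer than 50% of the 50-base words were their own, and these held 3.16% of the counts. The parts of transcript end, length and shared words were not tested. Hist1h2bc and Hist2h2be had no stem-loop match in their annotated transcripts, although these held 742 and 2192 bases after the stop codon. Hist1h2bc was annotated with 2 exons, from 23684199 to 23692908 on chromosome 13. A poly(A) signal (AATAAA or ATTAAA) stood in the last 50 bases of 17 members, of which 9 had at least 10 counts, against 8 of the 50 members without it.

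**Figure D1:**
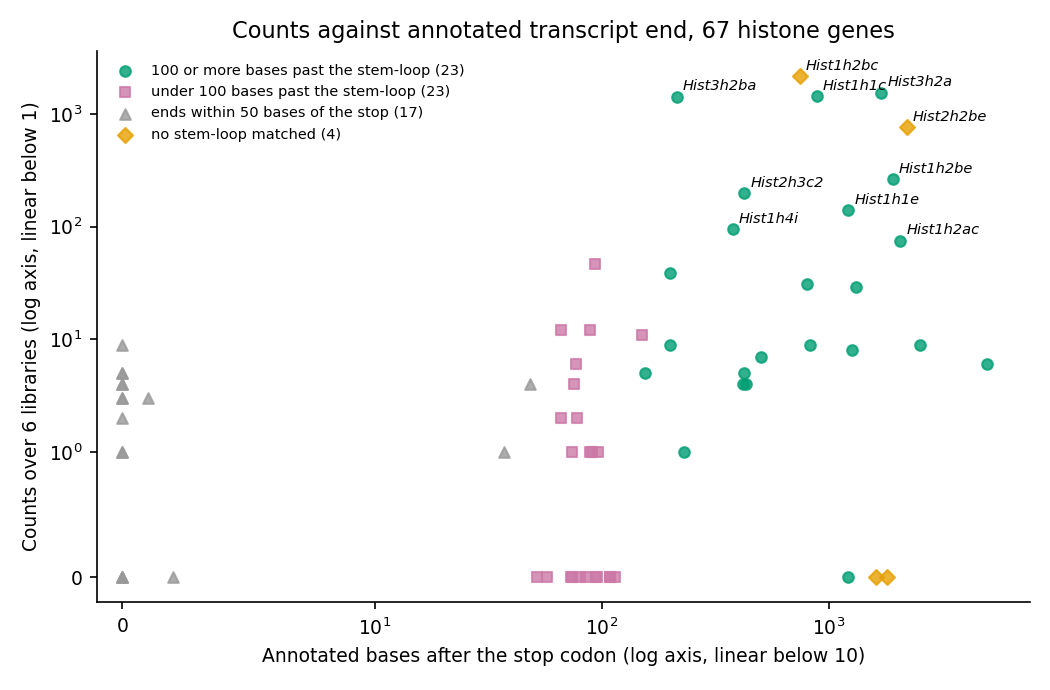
Counts summed over 6 libraries (vertical, log axis, linear below 1) against the annotated bases after the stop codon (horizontal, log axis, linear below 10) for the 67 histone genes, 1 point per gene, coloured by how its annotated transcript ends, with the 10 tested genes named. The 17 genes that end within 50 bases of the stop codon all stay at 9 counts or fewer.

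Promoters were read from RefSeq windows (GRCm38.p6, 250 bases before to 50 after each start), which were given for 62 of the 67 members in 63 windows. The CCAAT motif, searched on both strands, was in 85.7% of them against 37.4% of all 32851 windows. It was in every window of the H1, H2A, H2B and H3 genes, but in only 3 of 12 windows of the H4 genes. The octamer ATTTGCAT, known as a binding site of OCT1 in H2B promoters, was in 22.2% against 1.7%, and all 14 windows that held it belonged to H2A or H2B genes. TATAAA was in 55.6% against 13.6%. Many H2A and H2B genes stand head to head and share the DNA between their starts, and 12 such pairs were found, 175 to 305 bases apart. The pair Hist1h2ac and Hist1h2bc is shown because it combines the member with the most reads and the tested member with the highest log2 fold change. Its starts lie 250 bases apart, and the window of Hist1h2ac (chr13:23683910-23684209, minus strand) covers the whole gap. Capitals mark CCAAT, ATTTGCAT and TATAAA in either direction.
Hist1h2ac promoter: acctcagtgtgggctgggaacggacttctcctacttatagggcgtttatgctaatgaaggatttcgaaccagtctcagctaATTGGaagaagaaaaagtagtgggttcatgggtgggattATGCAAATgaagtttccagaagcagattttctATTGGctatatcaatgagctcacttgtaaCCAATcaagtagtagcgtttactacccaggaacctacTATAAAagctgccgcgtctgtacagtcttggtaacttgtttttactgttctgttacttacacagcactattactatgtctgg
Over the 6 libraries Hist1h2bc had 2177 counts and Hist1h2ac 75. In the pair Hist2h2ac and Hist2h2be, 238 bases apart, the H2B gene had 769 counts and the H2A gene none. In the other 10 pairs no gene had more than 39 counts.

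No histone gene differed past the threshold between mutants and controls. A gene entered the test when it had about 10 counts at the typical depth in at least 3 libraries, and it was called at an adjusted p under 0.05 and a fold change over 2. Only 10 of the 67 members entered. None was called, where 0.353% of the 16731 genes tested were called higher and 0.00598% lower. None had an adjusted p under 0.05 without the limit on fold change, against 0.628% of all genes. With DESeq2 and limma-voom the number called was also 0. At an unadjusted p under 0.05 there were 2 of the 10 members by edgeR and by limma-voom, against 6.51% of all genes tested by edgeR. These were Hist3h2a and Hist1h2ac, of which Hist1h2ac passed the filter through the mutant libraries alone. By DESeq2, which fitted 49 members without this filter, there were 3, and no share over all genes was taken for that fit. The median log2 fold change over the 10 members was 0.08, beside -0.01 for all genes tested. It moved from -0.11 without mutant 2 to 0.20 without mutant 1. In whole tissue, fewer cells of a type and less RNA per cell cannot be told apart.

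The abundant members were at similar levels in both genotypes. Hist1h2bc, an H2B gene, was at 27.0, 27.0 and 21.6 CPM in the controls and at 20.1, 31.6 and 29.6 CPM in the mutants. The mutant libraries lay on both sides of the controls, and the fold change was 1.08 with a 95% interval of 0.879 to 1.32. Hist1h1c, which encodes a linker histone, was at 20.5, 18.7 and 14.2 CPM in the controls and at 14.6, 18.4 and 17.4 in the mutants. Its fold change was 0.945 (0.774 to 1.15), with overlapping groups. Hist3h2ba, an H2B gene of chromosome 11, was at 19.8, 15.2 and 15.8 CPM in the controls and at 15, 21.6 and 15 in the mutants, a fold change of 1.01 (0.819 to 1.25). Mutant 2 was the highest of the 6 libraries and the other two mutants the lowest. Hist2h2be, an H2B gene of chromosome 3, was at 10.1, 9.23 and 9.04 CPM in the controls and at 7.44, 9.26 and 10.2 in the mutants, a fold change of 0.949 (0.768 to 1.17). For these 4 genes the intervals lie within 1.5-fold in either direction.

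Hist3h2a, the H2A gene beside Hist3h2ba, was the abundant member with the lowest unadjusted p. It was at 22.2, 20.1 and 19.2 CPM in the controls and at 14.7, 18.6 and 16.1 in the mutants. All mutants lay below all controls, as they did in 5.42% of all genes tested. The fold change was 0.804 (0.680 to 0.951), a log2 difference of -0.31 ± 0.11 (SE, n = 3 per group), and the adjusted p was 0.486 by edgeR, with the unadjusted p under 0.05. Its transcript shares 708 of 2146 exonic bases with Trim17 on the same strand, where reads may not be assigned to 1 gene. The part of this overlap in the difference was not tested.

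The less abundant members gave wider intervals. Hist1h2be, a further H2B gene, was at 3.46, 2.93 and 1.96 CPM in the controls and at 3.92, 3.58 and 3.34 in the mutants. Its groups overlapped, with control 1 above the lowest mutant, and the log2 fold change was 0.38 ± 0.23 (adjusted p = 0.890 by edgeR). Hist1h1e, a linker histone gene, was at 2.06, 1.68 and 0.540 CPM in the controls and at 1.92, 1.87 and 2.18 in the mutants. Control 3 stood apart as the lowest library, and the log2 fold change was 0.48 ± 0.35 (adjusted p = 0.912). Hist1h2be and Hist1h1e share 496 exonic bases on the same strand, and 320 of the exonic bases of each also belong to Gm11398, so their values are not fully separate. Hist2h3c2, the only H3 gene tested, was at 2.93, 2.20 and 1.89 CPM in the controls and at 1.92, 2.99 and 2.40 in the mutants. These groups overlapped fully, and 63.54% of the 50-base words of this gene also occur in another transcript, mainly Gm20634. Hist1h4i, the only H4 gene tested, was at 1.20, 1.25 and 0.877 CPM in the controls and at 0.560, 1.49 and 1.45 in the mutants, with log2 fold changes of 0.06 for Hist2h3c2 and 0.10 for Hist1h4i.

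Hist1h2ac, the H2A partner of Hist1h2bc, had the highest log2 fold change of the tested members. Its counts were 9, 10 and 4 in the controls and 16, 14 and 22 in the mutants, or 0.598, 0.732 and 0.270 against 1.28, 1.05 and 1.6 CPM. All mutants lay above all controls, as in 6.23% of all genes tested. The log2 fold change was 1.29 ± 0.39 (SE, n = 3 per group, adjusted p = 0.269 by edgeR), with a 95% interval of 0.47 to 2.12. The gene passed the filter through the mutant libraries alone, since no control had more than 10 counts, so a difference in this direction was built into its selection. Its head-to-head neighbour Hist1h2bc differed by 0.11 ± 0.14 on the log2 scale. Over the 10 tested members, the 95% interval excluded a 2-fold fall in all and a 2-fold rise in 8, the exceptions being Hist1h2ac and Hist1h1e.

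**Figure D2:**
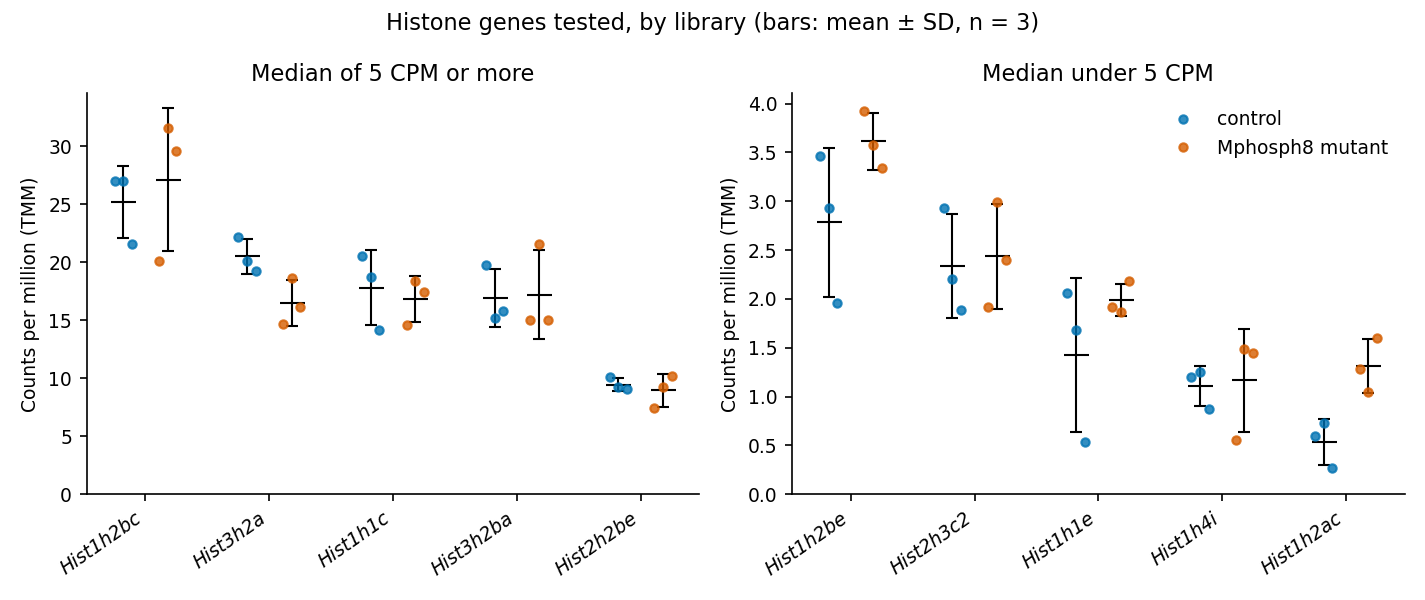
Levels in CPM of the 10 tested histone genes in 3 control and 3 mutant libraries, with 1 point per library and bars for mean ± SD, split into 2 panels with separate axes that start at 0. The groups are apart only for Hist3h2a, lower in the mutants, and Hist1h2ac, higher in the mutants.

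**Figure D3:**
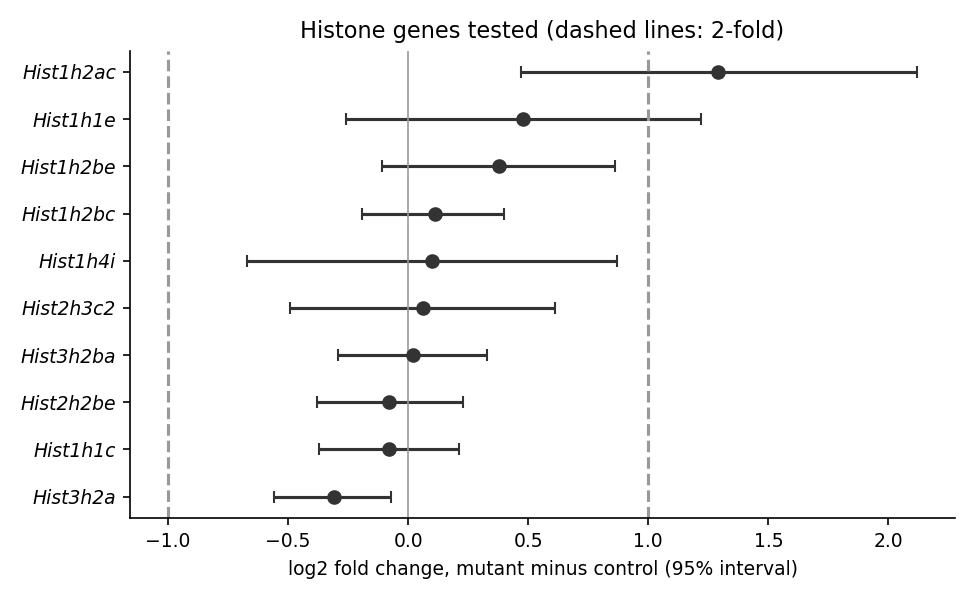
Log2 fold change, mutant minus control, of the same 10 genes with 95% intervals from edgeR, ordered by size, with dashed lines at 2-fold. The intervals of 8 genes stay between the dashed lines, and those of Hist1h2ac and Hist1h1e cross the upper one.

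The remaining 57 members did not pass the filter on low counts and had 311 counts in all, 201 in the controls and 110 in the mutants. They summed to 5.12, 5.20 and 3.58 CPM in the controls and to 2.00, 3.21 and 3.05 CPM in the mutants, a log2 ratio of -0.75. All mutants lay below all controls, but without Hist1h4h the groups overlapped (log2 ratio -0.60). This sum was added after the data were seen and is given with no test. Of the 57 members, 7 had at least 10 counts. Hist1h4h, an H4 gene, had 17, 10 and 10 counts in the controls and 5, 3 and 2 in the mutants. All mutants lay below all controls, as in 3.05% of the 5317 genes with at least 10 counts that were not tested. Without the filter on low counts its log2 fold change was -1.71 (adjusted p = 0.135 by edgeR), and by DESeq2 it was -1.74 (adjusted p = 1.0). It entered the main test in the 3 fits without 1 mutant library, with adjusted p from 0.144 to 0.875 by edgeR, and it passed the filter there through the controls alone, the group in which it was higher. Hist1h3d, an H3 gene, had 10, 6 and 7 counts in the controls and 1, 1 and 6 in the mutants, with a log2 fold change of -1.36 without the filter (adjusted p = 0.839 by edgeR). Hist1h2ad, an H2A gene, had 3, 3 and 4 counts in the controls and 0, 2 and 0 in the mutants. In both of these genes too the mutants lay below the controls once scaled for depth, by narrow margins of 6 against 6 or 2 against 3 counts. Hist1h2bg had 10, 7 and 6 counts in the controls and 3, 8 and 5 in the mutants. Hist2h4 had 8, 11 and 2 counts against 2, 3 and 3. These groups overlapped, as did those of Hist1h2bj with 12 counts in all and Hist1h2bp with 11. Thus the mutants lay below the controls in 3 of these 7 members and above them in none, where 7.15% of the same 5317 genes had all mutants above all controls. The 7 are too few for this count to carry weight, and it was not tested. Reads of the 50-base kind can often not be placed in a single copy, since 45.84% of the words of Hist1h4h and 67.11% of those of Hist1h2ad occur elsewhere, and in 30 members fewer than 50% of the words were their own. Hist2h2aa2 had no word of its own.

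The sum over all 67 members did not separate the genotypes. It was 115, 104 and 88.9 CPM in the controls and 83.4, 114 and 102 CPM in the mutants, or 103 ± 13.1 against 99.8 ± 15.3 CPM (mean ± SD, n = 3). The highest and the lowest library of the 6 were control 1 and mutant 1. H2B genes summed to 55.5 ± 6.24 CPM in the controls and 57.7 ± 10.3 in the mutants, and H1 genes to 19.5 ± 3.98 and 18.9 ± 2.07. H2A genes summed to 21.7 ± 1.72 and 18.2 ± 2.04, H3 genes to 3.05 ± 0.603 and 2.76 ± 0.588, and H4 genes to 3.01 ± 0.705 and 2.16 ± 0.419. The groups overlapped for all 5 types.

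When the members were divided by their annotated end, 1 class stood apart. This division was made after the values were seen and is given with no test. The 23 members with fewer than 100 annotated bases behind the stem-loop, none of which entered the test, had 28, 23 and 22 counts in the controls and 9, 9 and 9 in the mutants. Their summed levels were 1.86, 1.68 and 1.48 CPM against 0.720, 0.672 and 0.654 CPM, a log2 ratio of -1.30. Within the class 8 members were lower in the mutants, 4 were higher and 11 had no count. Hist1h4h held 47 of the 100 counts, and without it the sums were 0.731, 0.952 and 0.810 CPM against 0.320, 0.448 and 0.509 CPM, a log2 ratio of -0.97 with no overlap. Without Hist1h2ad as well, the log2 ratio was -0.68 and the counts were 8, 10 and 8 against 4, 4 and 7. With the limit set at 200 bases, which brings in the abundant Hist3h2ba, it was -0.07. The 23 members with longer ends summed to 65.9 ± 9.56 and 62.5 ± 8.33 CPM, and the 17 that end near the stop codon to 0.489 ± 0.232 and 0.595 ± 0.309 CPM (mean ± SD, n = 3 each). Neither of these classes separated the genotypes.

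**Figure D4:**
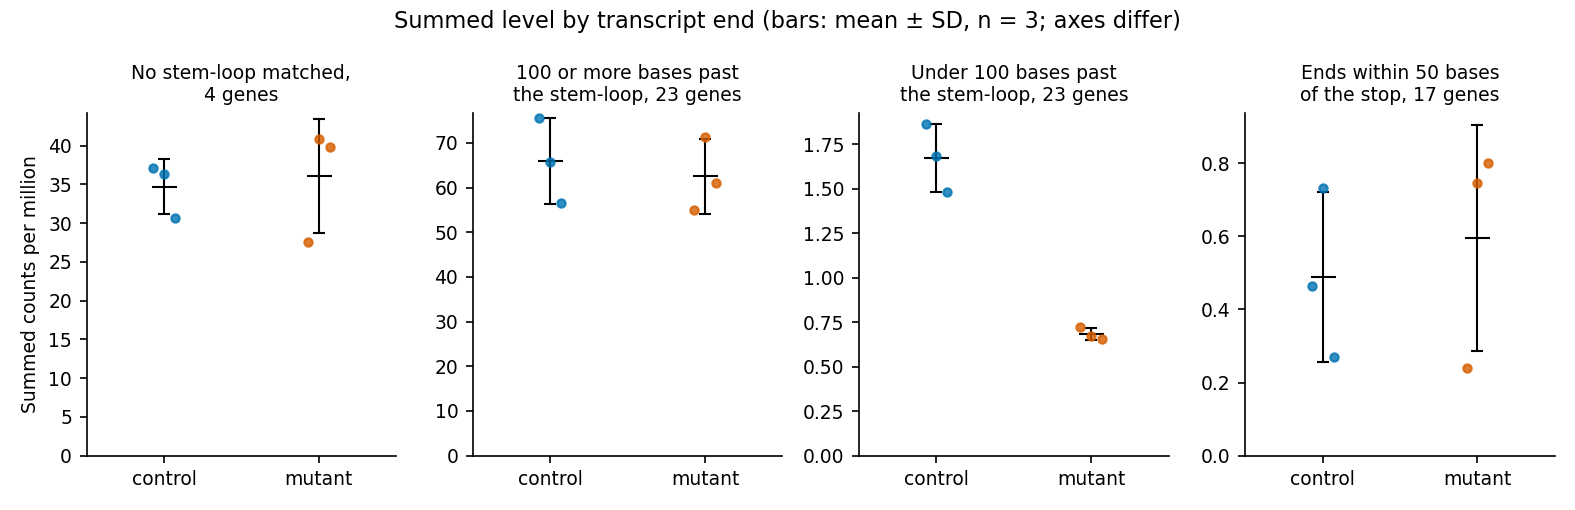
Summed CPM of the histone genes in each of 4 classes of annotated transcript end, in 3 control and 3 mutant libraries, with 1 point per library, bars for mean ± SD and a separate axis from 0 in each panel. Only the class with fewer than 100 bases past the stem-loop is apart, between 1.48 and 1.86 CPM in the controls and between 0.654 and 0.720 CPM in the mutants.

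Markers of dividing cells were set beside these values, because the stem-loop mRNAs are made in S phase. All 21 were tested, and none had an adjusted p under 0.05. Their median log2 fold change was -0.07, from -0.35 for the mitotic kinase gene Cdk1 to 0.18 for Birc5. Their summed levels were 195, 193 and 251 CPM in the controls and 200, 198 and 201 in the mutants, with control 3 above the rest. Of 8 markers of granule cell and neural progenitors, 7 were tested and none passed, between -0.30 for Eomes and 0.15 for Sox2. RNAs that carry no poly(A) tail show that some tail-less RNA came through the selection, but not how much tail-less histone mRNA did. Of 7 listed, 3 were tested, with log2 fold changes from -0.44 for Rn7sk to 0.00 for Rny3. The list summed to 17.6, 32.0 and 13.8 CPM in the controls and 18.4, 16.8 and 20.0 in the mutants. Per kilobase of exon, Rny3 was at 66.5 CPM, Rny1 at 54.9 and Rn7sk at 20.5, where the highest histone gene, Hist3h2ba, was at 27.8. The list was uneven, since Rpph1 was at 0.111 and Terc at 0.0814 CPM per kb, and Rmrp had no count. The part of tail-less RNA in the histone values was not tested.

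The genes that make or replace these mRNAs showed no change past the threshold either. Of 16 listed factors of histone mRNA processing, such as SLBP and the U7 proteins, 14 were tested, with a median of -0.03 and a range from -0.17 for Lsm1 to 0.12 for Lsm11. All 11 listed histone variants were tested, with a median of -0.08 and a range from -0.27 ± 0.09 for H2afv (adjusted p = 0.375 by edgeR) to 0.05 for H1f0. The variants summed to between 634 and 741 CPM in the controls and between 643 and 653 CPM in the mutants. Among cell type markers, no neuronal, astrocyte, microglial or blood gene had an adjusted p under 0.05. The ends of these lists were -0.16 for Snap25 and 0.21 for Gad2, -0.24 for Gfap and 0.26 for Aldh1l1, -0.14 for Aif1 and 0.15 for Csf1r, and -0.05 for Hbb-bs and 0.25 for Alas2. Of 8 oligodendrocyte genes, 3 fell by less than 2-fold in the mutants. These were the myelin genes Mal (log2 fold change -0.53, adjusted p = 0.0241 by edgeR), Mog (-0.49, adjusted p = 0.0351) and Cldn11 (-0.49, adjusted p = 0.0496). All 8 had a negative log2 fold change, and the list summed to between 21900 and 26200 CPM in the controls and between 17300 and 20100 CPM in the mutants. Its part in the histone values was not tested.

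Neighbours and other genes without introns gave 2 further comparisons. Within the span of the Hist1h members on chromosome 13 the files list 148 other genes, of which 6 were tested, and none passed, from -0.21 for Zfp184 to 0.08 for Gm46404. Of 1259 protein-coding genes with 1 exon, histone genes and clustered protocadherins left out, 298 were tested, and 5 were called higher (1.68%) and none lower. Their median log2 fold change was 0.02. Of the 62 single-exon histone genes 8 were tested, with a median of 0.04 and none called. The difference between these shares was not tested.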

How the data were processed

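The authors made poly(A)-selected libraries from total RNA of whole brains, sequenced them as single reads of 50 bases and trimmed them with Trim Galore 0.5.0. Reads were aligned to GRCm38 and counted with featureCounts (Subread 1.6.2). The deposited values are raw counts per Ensembl gene, not normalised. How featureCounts treated strand and multiply mapped reads is not given in the sources used here.

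Annotation was GENCODE M21, which matched 54495 of 54532 identifiers. Histone genes, lists and tests were chosen with earlier results of these data known. Each transcript was cut into words of 50 bases, and words found in genes elsewhere were counted as shared. The main test was edgeR 4.0.16 (quasi-likelihood, filterByExpr, TMM, genotype only, R 4.3.3) over all 6 libraries, with Benjamini-Hochberg adjustment over 16731 genes and SE derived from the F statistic. Intervals are log2 fold change ± SE times the t quantile. Sums are CPM on the effective library size. The fit was repeated with limma-voom 3.58.1, DESeq2 1.42.0 and RLE scaling, with other filters, with each library left out, with a replicate block, with GC correction (loess span 0.3) and on protein-coding genes only. Replicates of a group differed beyond sampling noise, so each was counted as 1 sample.

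Named genes were Mphosph8, every tested member, untested members with at least 10 counts, and per list the genes at adjusted p under 0.05 or else both extremes. H2afx, Cenpa, Xist, Rny1, Rpph1, Terc, Rmrp and the members without counts were named after their values were seen.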

Additional observations from a re-analysis of the deposited data

How the results depend on the processing

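The number of histone genes called, and the number at an adjusted p under 0.05, was 0 under all alternatives run, a 1.5-fold limit included. Members at an unadjusted p under 0.05 numbered 4 of the 49 fitted without the filter on low counts. With a library left out they numbered 2 to 4 of the 10 or 11 fitted. No share over all genes was taken for these fits. Hist1h2ac and Hist1h4h, which are among them, passed the filter through the group in which each was higher, as given above. The replicate numbers did not pair the libraries (correlations of deviations 0.10, -0.05 and 0.08), and with the replicate block the count called was 0 and the median histone log2 fold change 0.06. The log2 fold change of Mphosph8 ran from -1.13 to -0.85, with an adjusted p under 0.05 in each of these fits. It missed the 2-fold limit without control 3 (-0.85), without mutant 2 (-0.98) and without mutant 3 (-0.96). The median over the members ran from -0.11 to 0.20 with a library left out and was -0.08 by DESeq2 or without the filter, where 49 members entered. The log2 ratio of the summed CPM ran from -0.15 to 0.07. With a library left out, the sign turned in members close to 0. The ranges were -0.22 to 0.03 for Hist1h1c, -0.18 to 0.15 for Hist3h2ba, -0.11 to 0.26 for Hist2h3c2, -0.11 to 0.41 for Hist1h4i, -0.18 to 0.04 for Hist2h2be and -0.02 to 0.28 for Hist1h2bc. Hist1h1e moved from 0.48 to 0.09 without control 3 and to 0.86 without control 1, and Hist1h2ac ran from 0.97 without control 3 to 1.57 without control 2. By limma-voom Hist1h4i was at -0.00. The cause was not tested. The sum of the class with fewer than 100 annotated bases behind the stem-loop rests on 100 counts. Its alternatives were chosen after seeing the data. No test was made for the 57 members under the filter on low counts.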
